A study of Mus musculus with 2 samples.

Results

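Pomc, Cartpt and 3 transcription factors tied to Pomc neurons, Prdm12, Tbx3 and Nr5a2, were read from single-cell tables of the mouse mediobasal hypothalamus. The 5 genes were taken by name out of 29230 genes in either library table, and all 5 were present in both. One Drop-seq library was made from each genotype, Irx5KO (Irx5-/-, 6 pooled mice) and WT (wild type, 7 pooled mice). All mice were CD-1 adults of 7 to 8 weeks, the tissue was the microdissected arcuate nucleus with the median eminence, and dead cells were removed by sorting before droplet capture. Drop-seq tags the 3′ end of each transcript with a bead barcode that stands for the cell and with a unique molecular identifier (UMI), so that a value is a count of UMIs. With a single pooled library per genotype no difference had a replicate check and no test was run. The 95% intervals given with the values are exact Poisson, Clopper-Pearson or conditional binomial intervals that cover counting error only.

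Pomc encodes the precursor that neurons of the arcuate nucleus cut into melanocortin peptides, which lower food intake, and that corticotrophs and melanotrophs of the pituitary cut into ACTH and related peptides. Cartpt encodes a peptide precursor carried by many hypothalamic neurons, part of the Pomc neurons among them. Prdm12 is a zinc-finger regulator required in mice for Pomc expression in arcuate neurons. Tbx3 is a T-box factor that acts in the differentiation and identity of arcuate neurons. Nr5a2, an orphan nuclear receptor, is a relative of Nr5a1 and is known from liver, pancreas and ovary, and a microdissection of this region can carry pituitary tissue because the pars tuberalis wraps the median eminence.

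In the GENCODE M21 annotation of GRCm38 (mm10) Pomc (ENSMUSG00000020660.6) lies at chr12:3954951-3960642 on the plus strand with at most 4 exons. Cartpt (ENSMUSG00000021647.7) lies at chr13:99898489-99901091 on the minus strand with at most 3 exons. Prdm12 (ENSMUSG00000079466.2) occupies chr2:31640037-31655795, Tbx3 (ENSMUSG00000018604.18) chr5:119670669-119684724, both on the plus strand, and Nr5a2 (ENSMUSG00000026398.14) chr1:136842571-136960448 on the minus strand. Prdm12 is overlapped by the antisense gene Gm13425 and Tbx3 by the antisense gene Tbx3os1. RefSeq promoter windows on GRCm38.p6, 250 bases before and 50 after the start, matched 4 of the 5 genes. Positions below count from the RefSeq start, and the Cartpt window lies wholly inside the GENCODE interval of the gene. The windows of both peptide genes are shown because the results turn most on these 2 genes; they run 5′ to 3′, and capitals mark the motifs found.
Pomc chr12:3954695-3954994 plus strand: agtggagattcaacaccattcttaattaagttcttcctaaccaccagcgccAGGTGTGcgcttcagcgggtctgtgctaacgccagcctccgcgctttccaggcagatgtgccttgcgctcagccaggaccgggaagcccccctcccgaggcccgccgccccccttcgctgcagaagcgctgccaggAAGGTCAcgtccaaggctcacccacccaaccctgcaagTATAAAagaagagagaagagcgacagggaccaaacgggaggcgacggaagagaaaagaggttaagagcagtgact
Cartpt chr13:99900634-99900933 minus strand: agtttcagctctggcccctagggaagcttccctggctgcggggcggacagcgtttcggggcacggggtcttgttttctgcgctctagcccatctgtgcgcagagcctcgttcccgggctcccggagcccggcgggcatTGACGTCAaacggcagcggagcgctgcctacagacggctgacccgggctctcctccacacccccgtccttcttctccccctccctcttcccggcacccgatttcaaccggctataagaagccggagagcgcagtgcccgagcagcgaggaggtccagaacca

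In these windows, searched on both strands, Pomc held the letters of a T-box core, AGGTGTG, from base -199 to -193 before its start. The same letters stood in 5.84% of 32851 promoters of equal length. An extended nuclear receptor half-site, AAGGTCA, lay from -63 to -57 (in 4.72% of promoters) and a TATA box, TATAAA, from -25 to -20 (in 13.6%). Cartpt held the half-site of a cyclic AMP response element, TGACGT (on either strand in 7.51% of promoters). It lay on both strands, from -112 to -107 and from -110 to -105, overlapping each other. The joined letters read TGACGTCA, and the share of promoters with that whole stretch was not counted. None of the 4 motifs was in the Prdm12 window. Nr5a2 had 2 windows, the second with TATAAA on the opposite strand from -181 to -176. A match describes letters only and shows no binding.

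The library labelled Irx5KO gave 1949 cells with 4915775 UMIs and the WT library 1841 cells with 3960089 UMIs, at medians of 1692 and 1621 UMIs per cell. Irx5 itself had 0 UMIs in Irx5KO cells, an upper limit of 0.750 CPM (UMIs of a gene in every 1e+06 UMIs), against 13 UMIs (3.28 CPM, 1.75 to 5.61) in WT cells; the sources used here do not say whether the 3′ tag falls in the deleted stretch. Neuron-like cells, named like all classes from marker genes, numbered 896 in Irx5KO and 627 in WT. Kept barcodes that differed only at base 11 or 12 of 12 were frequent, with 251 of 1949 Irx5KO and 128 of 1841 WT barcodes in such families. All 354 Irx5KO and all 165 WT pairs that differed at base 12 fell in 1 cell class, against 27.6% and 17.8% of any 2 cells. A family therefore cannot be told apart from 1 cell read under several barcodes, and counts of cells are given below also with each family summed into 1 cell. UMI sums are not changed by that summation, and 1 barcode sequence was shared between the libraries.

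Over all cells Pomc was alike in both libraries, with 1549 UMIs (315 CPM) in Irx5KO cells and 1281 UMIs (323 CPM) in WT cells, a ratio of 0.974 (0.904 to 1.05). The cells that held those UMIs differed. In Irx5KO 93.9% of Pomc UMIs were in neuron-like cells and 0.323% in pars tuberalis-like cells. In WT 24.3% were in neuron-like cells and 71.8% in pars tuberalis-like cells. A total over the whole dissection thus mixed Pomc of neurons with Pomc of cells on the pituitary side, in different proportions in the 2 libraries.

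The pituitary-side signal in WT came from 6 of 88 pars tuberalis-like cells. They carried 465, 222, 110, 83, 28 and 8 Pomc UMIs, in all 916 UMIs or 71.5% of WT Pomc, at 64827 CPM. Among the 46 Irx5KO pars tuberalis-like cells the highest count was 2 Pomc UMIs, so no Irx5KO cell of this class reached even the lowest of those 6. The 6 cells had 657 to 4621 UMIs each, with a median of 2323, against 1699 over all WT cells of the class. Tbx19, the T-box factor that corticotrophs and melanotrophs need, had 7 UMIs in 4 of them, and Pitx1, a pituitary homeobox factor, had 4 UMIs in 2 of them. Tbx19 was not confined to these cells: WT neuron-like cells had 19 Tbx19 UMIs (10.5 CPM), against 495 CPM in the 6 cells. The 6 cells went against the name of their class: Cga and Tshb, hormone genes that lead it, were at 0 UMIs in them, against 23164 and 3839 CPM in the other 82 WT cells of the class, and Tbx19 had 0 UMIs in those 82. Gh and Prl, hormone genes of other pituitary cells, were at 0 UMIs in the 6 as well. Tbx3 was at 0 UMIs too, where 14130 UMIs in all allow up to 261 CPM, and Cartpt had 2 UMIs in 1 cell. The 9 pan-neuronal markers were not absent, with 33 UMIs (2335 CPM) in the 6 cells against 3167 CPM in the WT neuronal Pomc cells; Snap25 had 9 and Syt4 13 UMIs, while Stmn2 had 1 and Tubb3 0. A second rule asked for at least 1 UMI of Pitx1, Tbx19, Pou1f1, Cga or Tshb in a cell outside the neuron-like class. It placed 0.904% of Irx5KO and 71.4% of WT Pomc UMIs on the pituitary side. Because it uses that class, it is not independent of the clustering.

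**Figure D1:**
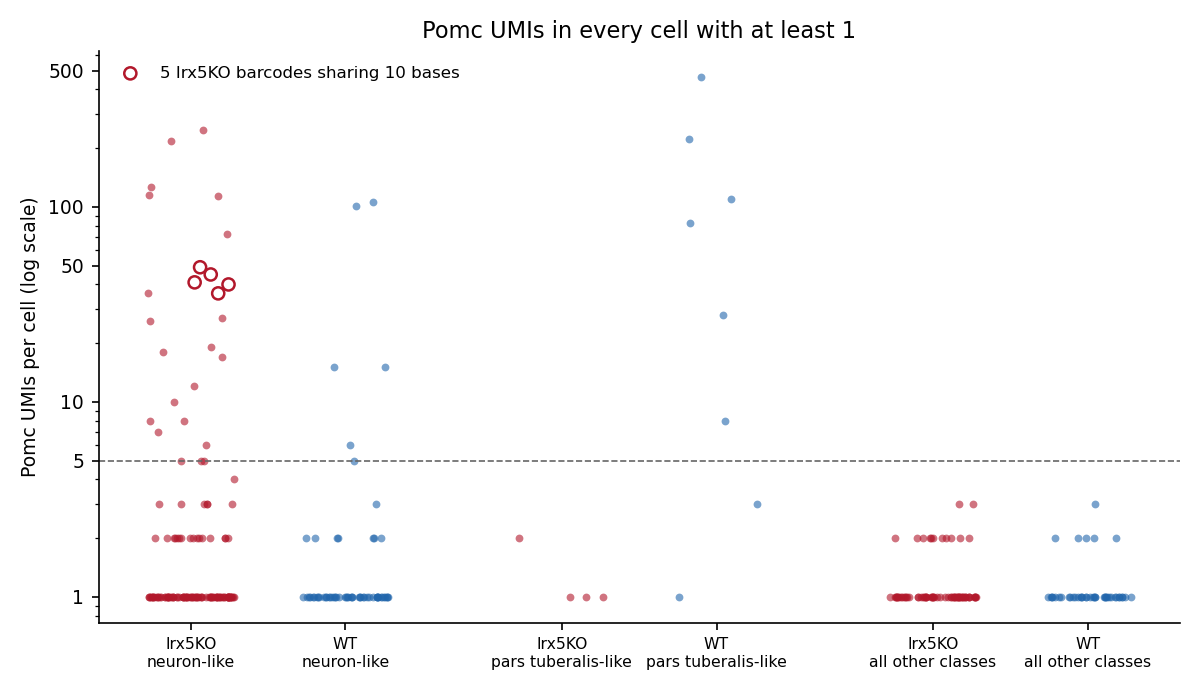
Pomc UMIs (log axis) in single cells of the neuron-like class, the pars tuberalis-like class and all other classes, Irx5KO left of WT; each point is a cell with a Pomc UMI, the dashed line marks 5 UMIs and open circles mark the 5 barcodes that share 10 bases. Irx5KO cells above the line are all neuron-like (26 cells), while WT has 6 neuron-like and 6 pars tuberalis-like cells above it, the highest pars tuberalis-like one at 465 UMIs.

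The authors' merged table kept all 26 neuronal Irx5KO Pomc cells and all 6 neuronal WT Pomc cells, but 0 of the 6 WT pituitary-side cells. Of 173 WT barcodes that it left out, 80 had 200 genes or fewer, 88 had over 10% mitochondrial UMIs and 10 had both, which leaves 15 with neither. Those 15 held 926 of the 1358 Pomc UMIs of all WT barcodes (68.2%). The Irx5KO table held no barcode with 200 genes or fewer or with over 10% mitochondrial UMIs, and all 2350 of its barcodes were in the merged table. Whether cells like the 6 were taken out of the Irx5KO table before deposit cannot be told apart from their absence in that library, so the difference on the pituitary side is not read as one between genotypes.

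**Figure D2:**
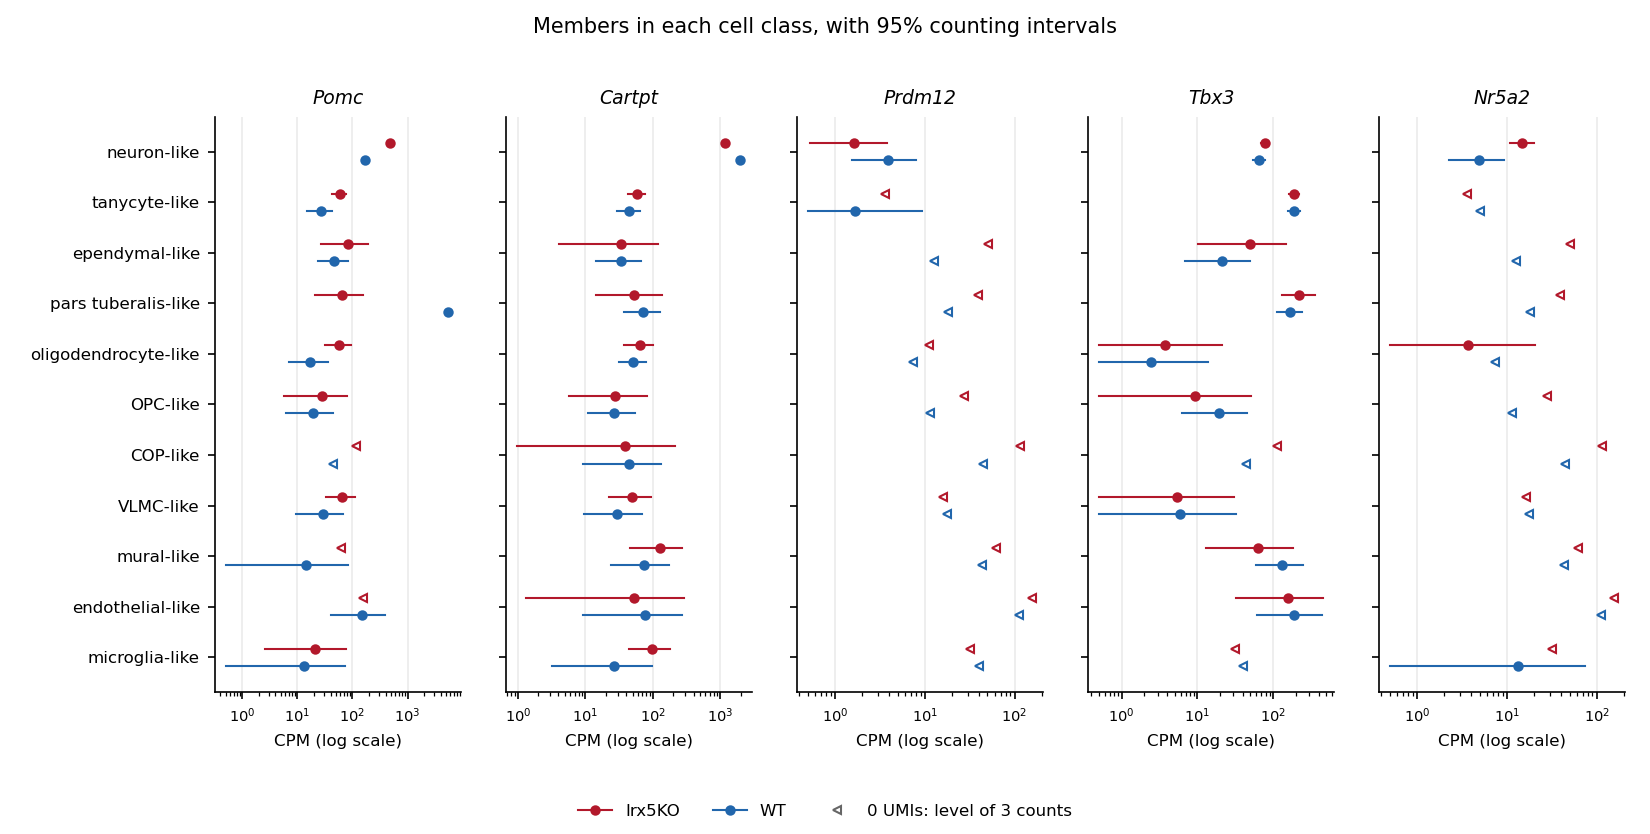
Level of each of the 5 genes in CPM (log axis) by cell class, Irx5KO above WT, with 95% counting intervals (lower ends under 0.5 CPM are cut at 0.5). Open triangles stand for 0 UMIs, drawn at the level of 3 counts. Pomc peaks in WT pars tuberalis-like cells (5516 CPM), Cartpt in neuron-like cells of both libraries, and Tbx3 is at similar levels in tanycyte-like and pars tuberalis-like cells.

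Outside those cells the order of Pomc levels was headed by neuron-like cells in Irx5KO (471 CPM, 447 to 496), with ependymal-like cells next at 83.6 CPM (27.1 to 195) and pars tuberalis-like cells at 65.5 CPM (21.3 to 153). The intervals of all non-neuronal Irx5KO classes with a Pomc UMI overlapped one another. In WT, neuron-like cells (172 CPM) and endothelial-like cells (151 CPM, 4 UMIs) followed the pars tuberalis-like class and did not differ from each other beyond counting error. Oligodendrocyte-like cells, which should lack Pomc, had a Pomc UMI in 10.3% of 116 Irx5KO cells and 3.13% of 192 WT cells, at median depths of 1738 and 1851 UMIs. In neuron-like cells the shares were 15.2% in Irx5KO and 9.57% in WT, at median depths of 2419 and 2129 UMIs. With each cell thinned to 1000 UMIs, leaving out 130 Irx5KO and 113 WT neuron-like cells and 16 Irx5KO and 30 WT oligodendrocyte-like cells below that depth, neuron-like shares were 6.97% and 3.77% and oligodendrocyte-like shares 5.55% and 1.77%. Neuron-like cells with fewer than 5 Pomc UMIs had a thinned share of 4.46% and 47.8 CPM in Irx5KO, at or below the oligodendrocyte-like level, and 2.87% and 35.6 CPM in WT, above it. Cells that are neither neuron-like nor pars tuberalis-like had 51.4 CPM in Irx5KO and 25.2 CPM in WT. Neuron-like cells with at least 5 Pomc UMIs are called Pomc cells below.

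Within neuron-like cells Pomc was higher in Irx5KO, with 1454 UMIs (471 CPM) against 311 UMIs in WT (172 CPM, 153 to 192), a ratio of 2.74 (2.43 to 3.11). Of the 5 genes, 4 had the 50 UMIs needed for a call in this comparison, and at 1.5-fold 2 were higher in Irx5KO (Pomc and Nr5a2) and 1 lower (Cartpt). Of all 10908 genes compared in these cells, 12.4% passed that limit upwards and 6.47% downwards, and the median log2 ratio was 0.07. The neurons captured differed in kind as well as in genotype: 10 SCN markers summed to 1670 CPM in Irx5KO and 3865 CPM in WT, Agrp stood at 372 and 184 CPM and Ghrh at 103 and 21.5 CPM. The Pomc ratio was 2.56 without the SCN-like, VMH-like and Foxb1-like neurons and 2.67 with the 12 neuron clusters weighted alike. Gh and Prl, pituitary hormone transcripts, were also higher in Irx5KO neuron-like cells (55.7 against 13.2 CPM and 40.8 against 10.5 CPM). This was not particular to neurons. In oligodendrocyte-like cells both were at 67.5 CPM in Irx5KO and 0 in WT. In tanycyte-like cells Gh was at 58.4 CPM in Irx5KO and 1.67 CPM in WT, and Prl at 40.6 and 0 CPM. The part of these transcripts was not tested.

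Pomc cells made up 26 of 896 Irx5KO neuron-like cells (2.90%, 1.90 to 4.22) and 6 of 627 WT neuron-like cells (0.957%, 0.352 to 2.07). With barcode families summed they were 22 of 763 (2.88%, 1.82 to 4.33) and 6 of 563 (1.07%, 0.392 to 2.31), and the intervals overlapped in both counts. At a matched depth of 1000 UMIs the share with at least 2 Pomc UMIs was 2.66% of 766 Irx5KO and 0.844% of 514 WT cells. Pomc counts per cell spanned 5 to 247 with a median of 26.5 in Irx5KO, and were 106, 101, 15, 15, 6 and 5 in WT, so the WT counts lay within the Irx5KO range. Near the limit, 3 Irx5KO cells and 1 WT cell had exactly 5 Pomc UMIs, and 1 Irx5KO cell and no WT cell had 4. The depth of Pomc cells was 747 to 12920 UMIs (median 4553) in Irx5KO and 4104 to 12527 UMIs (median 6173) in WT. Pan-neuronal markers had 501 UMIs (3657 CPM) in the Irx5KO and 129 UMIs (3167 CPM) in the WT Pomc cells. One Irx5KO Pomc cell with 26 Pomc UMIs went against its class, with 0 pan-neuronal UMIs and 1 Pitx1 UMI among 889 UMIs.

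A single barcode family made up 5 of the 26 Irx5KO Pomc cells. Their bead barcodes are shown because the counts behind them are nearly alike; capitals mark the last 2 bases, where they differ, and the first 10 bases are the same.
Irx5KO Pomc barcode 7: tcgttgggccGC
Irx5KO Pomc barcode 8: tcgttgggccCG
Irx5KO Pomc barcode 9: tcgttgggccCC
Irx5KO Pomc barcode 10: tcgttgggccCA
Irx5KO Pomc barcode 12: tcgttgggccCT
In that order they held 49, 45, 41, 40 and 36 Pomc UMIs, together with 69, 56, 55, 39 and 63 Cartpt UMIs. As 1 cell the family would have 211 Pomc and 282 Cartpt UMIs among 10712 UMIs, a depth within the range of the other Pomc cells. With families summed the median was 18.5 Pomc UMIs per Irx5KO Pomc cell and 15 per WT Pomc cell.

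The Pomc ratio in neuron-like cells depended on where the 6 WT pituitary-side cells were placed by the clustering. With a minimum of 200 genes per cell all 6 fell among the neuron-like cells and the ratio was 0.705, and 2.40 (2.14 to 2.70) with them taken out. At a minimum of 800 genes the 4 that remained did so too, with a ratio of 0.677, and 2.62 (2.31 to 2.97) without them. Leaving out the Irx5KO cell with most Pomc and the WT cell with most Pomc gave 3.46, and leaving out the barcode family gave 2.35.

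**Figure D3:**
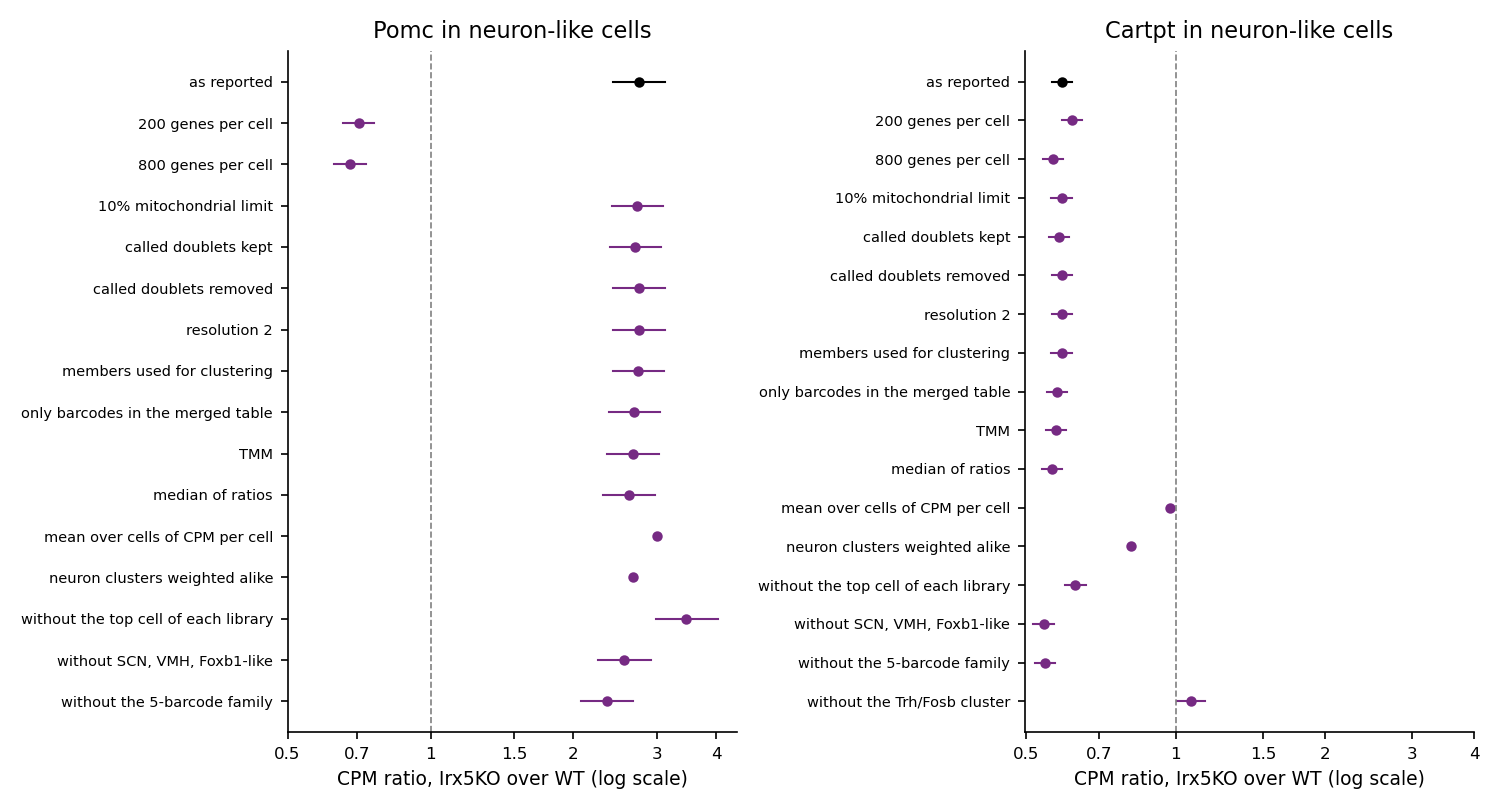
Irx5KO over WT ratio of Pomc and of Cartpt in neuron-like cells (log axis) under each setting of the analysis, with 95% counting intervals; the line at 1 marks equal levels. Pomc lies between 2.35 and 3.46 except under the 200-gene and 800-gene minimum, and Cartpt lies below 1 except without the Trh/Fosb cluster (1.07).

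Pomc cells were spread over several of the 12 neuron clusters, which had been built without the 5 genes and are named here by leading genes. The cluster led by Npvf and Crabp1 held 13 of 26 Irx5KO Pomc cells and 1 of 6 in WT, with Pomc at 1839 CPM in Irx5KO and 116 CPM in WT, a ratio of 15.9 (10.5 to 25.2), or 34.3 (17.3 to 79.7) without the cell of each library with most Pomc. Its 13 Irx5KO Pomc cells had 1013 Pomc UMIs, most of the 1313 in all Irx5KO Pomc cells. The Ghrh-like cluster led by Ghrh and Crabp1 had 413 CPM in Irx5KO and 140 CPM in WT, a ratio of 2.95 (1.98 to 4.57). That direction rested on the barcode family: 4 of its barcodes lay in this cluster, and without them 63 of the 238 Irx5KO UMIs were left and the ratio was 0.793 (0.498 to 1.30). The fifth barcode lay in the Avp/Oxt cluster, whose ratio was 7.36 (3.14 to 21.1) with it and 1.76 (0.596 to 5.79) without it.

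The cluster led by Trh and Fosb went the other way, with 91.0 CPM in Irx5KO against 715 CPM in WT, a ratio of 0.127 (0.0798 to 0.194). It held 2 Irx5KO Pomc cells with 11 Pomc UMIs in all and 3 WT Pomc cells with 212, among them the 2 with 106 and 101. Stress and early-response genes (Hspa1a, Npas4, Nr4a1, Junb) were also among the genes that lead this cluster. The leading genes also include Tbx19, which had 21 UMIs in Irx5KO and 19 in WT neuron-like cells in all. The WT level of this cluster thus rested on a pair of cells, while most Irx5KO Pomc UMIs lay in the Npvf/Crabp1 cluster. No Pomc cell was found in the SCN-like, Agrp-like, Kndy-like, VMH-like or Foxb1-like clusters of either library, where Pomc was at most 65.6 CPM, against 52.0 CPM in Irx5KO cells outside the neuron-like class.

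**Figure D4:**
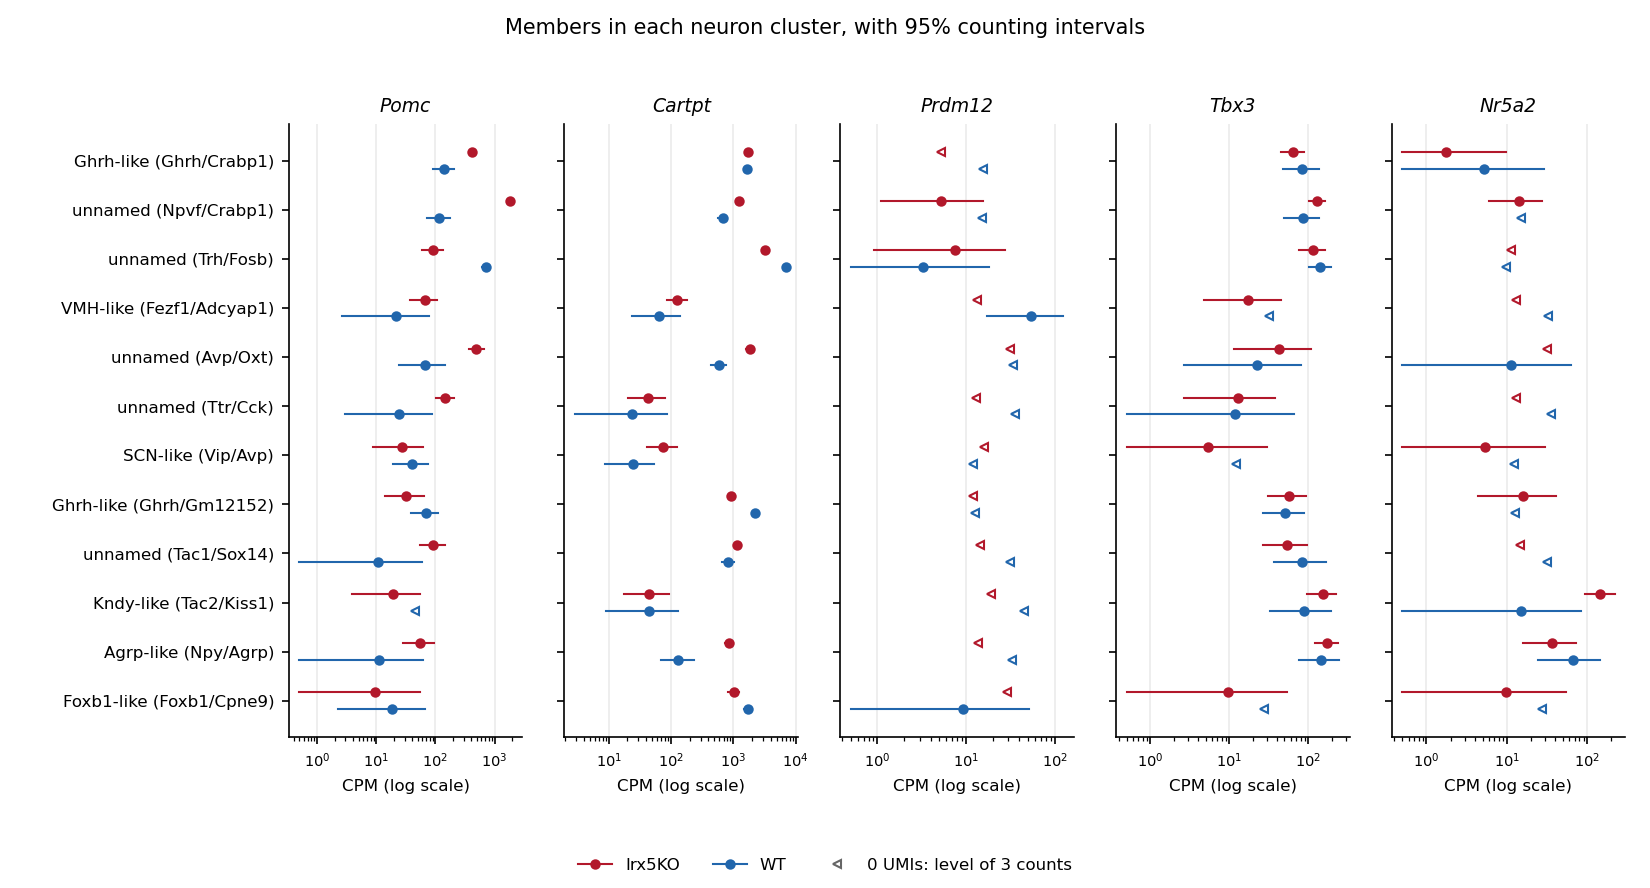
Level of each of the 5 genes in CPM (log axis) in the 12 neuron clusters, Irx5KO above WT, with 95% counting intervals (lower ends under 0.5 CPM cut at 0.5). Open triangles stand for 0 UMIs at the level of 3 counts. Pomc is highest in the Npvf/Crabp1 cluster in Irx5KO (1839 CPM) and in the Trh/Fosb cluster in WT (715 CPM), and Nr5a2 is highest in the Kndy-like cluster of Irx5KO (146 CPM).

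Cartpt was lower in Irx5KO neuron-like cells, with 3556 UMIs (1152 CPM, 1114 to 1190) against 3532 UMIs in WT (1949 CPM, 1885 to 2014), a ratio of 0.591 (0.564 to 0.619). The direction rested on the Trh/Fosb cluster, which had 3283 CPM in Irx5KO and 7112 CPM in WT and held 24.4% of Irx5KO and 62.2% of WT Cartpt UMIs, and without it the ratio was 1.07 (1.0 to 1.15). Few cells carried most of the WT signal. Cells with at least 90 Cartpt UMIs numbered 7 in Irx5KO, with 27.6% of its Cartpt UMIs, and 12 in WT, with 74.9%; summed over barcode families they were 8 (35.5%) and 12 (74.9%). The highest single cell had 232 Cartpt UMIs in Irx5KO and 434 in WT. By the mean of single-cell CPM, which gives each cell the same weight, the ratio was 0.975.

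By cluster, Cartpt did not follow 1 direction. It was higher in Irx5KO in the Agrp-like cluster, at 850 CPM against 132 CPM in WT, a ratio of 6.45 (3.60 to 12.7), or 17.9 (6.00 to 87.9) without the cell of each library with most Cartpt. That was seen in 25 of 39 Irx5KO and 3 of 14 WT cells of the cluster (22 and 3 with families summed). Ratios were also above 1 in the Npvf/Crabp1 cluster (1.83, 1.52 to 2.22) and the Avp/Oxt cluster (3.14, 2.30 to 4.35), the last 2.06 (1.48 to 2.91) without 1 barcode of the family above, which held 63 of its 177 Irx5KO Cartpt UMIs. In the Ghrh/Crabp1 cluster both libraries were alike, at 1702 CPM in Irx5KO and 1660 CPM in WT (1.03, 0.903 to 1.17). The ratio was 0.808 (0.709 to 0.924) without the family. It was 1.27 (1.09 to 1.48) without the cell of each library with most Cartpt, so its direction depended on which cells were left out. The second Ghrh-like cluster, led by Ghrh and Gm12152, had 0.417 and the Foxb1-like cluster 0.581. Outside neurons Cartpt was 55.8 CPM in Irx5KO and 43.8 CPM in WT, and 12.1% of Irx5KO and 9.90% of WT oligodendrocyte-like cells had a Cartpt UMI, a level read as background.

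Cartpt stood out within the Pomc cells of each library. It reached 4576 CPM in 26 Irx5KO Pomc cells against 993 CPM in the other Irx5KO neuron-like cells (4.61, 4.22 to 5.03), and 10435 CPM in 6 WT Pomc cells against 1754 CPM in the other WT neuron-like cells (5.95, 5.36 to 6.59). Both genes that could be called here, Cartpt and Tbx3, passed 1.5-fold upwards in the Pomc cells of each library. Of all genes compared, 12.9% of 9196 in Irx5KO and 19.4% of 6634 in WT did so, and 25.8% and 34.5% passed it downwards. The barcode family held 45.0% of the Cartpt UMIs of Irx5KO Pomc cells, and without it their ratio over the other neurons was 2.75 (2.45 to 3.08). In WT, 2 cells with 190 and 184 Cartpt UMIs held 88% of the 425 Cartpt UMIs and had just 5 and 6 Pomc UMIs. Without them the WT ratio was 1.38 (1.03 to 1.83), under the 1.5-fold limit, so the WT call of Cartpt rested on these 2 cells, while that of Tbx3 did not (6.25, 2.63 to 12.8). At least 5 UMIs of both genes were present in 11 of 26 Irx5KO Pomc cells (42.3%, 23.4 to 63.1) and 4 of 6 WT Pomc cells (66.7%, 22.3 to 95.7); with families summed the counts were 7 of 22 (31.8%) and 4 of 6. Cells positive for both were 10.3% of 107 Irx5KO and 6.45% of 62 WT cells with at least 5 Cartpt UMIs, so most Cartpt neurons were not Pomc cells.

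**Figure D5:**
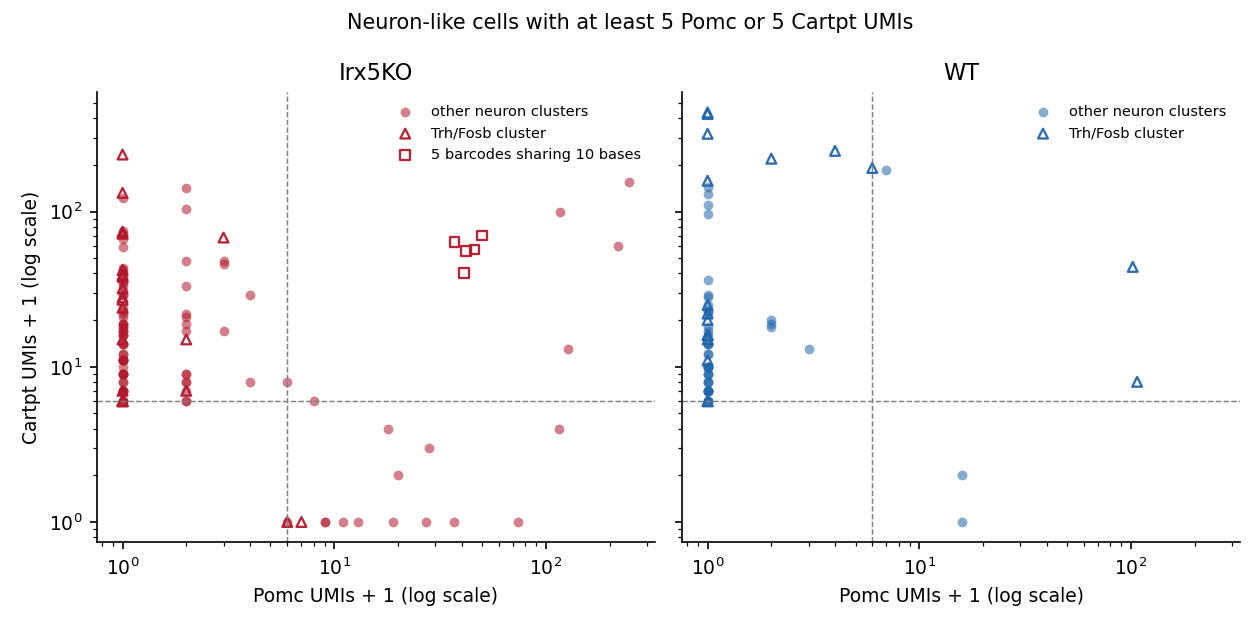
Pomc UMIs against Cartpt UMIs in single neuron-like cells (each plus 1, log axes), Irx5KO in the left panel and WT in the right. Most cells with high Cartpt have few Pomc UMIs; the WT cell with 434 Cartpt UMIs lies apart from the WT cells with 106 and 101 Pomc UMIs.

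Between the libraries the Cartpt level in Pomc cells was lower in Irx5KO, 4576 CPM against 10435 CPM in WT, a ratio of 0.439 (0.387 to 0.497), where 14.9% of 646 genes passed 1.5-fold downwards and 15.2% upwards. The direction rested on the 2 WT cells at the edge of the Pomc limit: without them the ratio was 1.88, and with at least 10 Pomc UMIs per cell it was 2.42. The Pomc-rich WT cells with 106 and 101 Pomc UMIs had 7 and 43 Cartpt UMIs, whereas the 2 Pomc-richest Irx5KO cells, with 247 and 218, had 155 and 59. No direction of Cartpt in Pomc cells between the libraries is read from these values.

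Tbx3 was measured in neurons and outside them. Neuron-like cells had 241 UMIs (78.1 CPM) in Irx5KO and 119 UMIs (65.7 CPM) in WT, a ratio of 1.19 (0.951 to 1.49). In tanycyte-like cells, the glia-like cells lining the ventricle floor, it was 191 CPM in Irx5KO and 190 CPM in WT (1.01, 0.785 to 1.29), where 10.6% of 5715 genes passed 1.5-fold upwards and 8.29% downwards. Both intervals include 1, and under other settings the upper end in neuron-like cells ran to 1.52. Pars tuberalis-like cells had 223 CPM (130 to 357) in Irx5KO and 168 CPM (112 to 243) in WT, and these classes did not differ from tanycyte-like cells beyond counting error in either library.

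Among neuron clusters Tbx3 was highest in the Agrp-like cluster in Irx5KO (174 CPM, against 143 in WT), followed by the Kndy-like (152 CPM, against 89.4) and Npvf/Crabp1 clusters (130 CPM, against 85.5). In WT the Agrp-like and Trh/Fosb clusters stood together at the top; the Trh/Fosb cluster had 114 CPM in Irx5KO and 142 CPM in WT. The intervals of these 4 clusters overlapped within each library. The SCN-like, VMH-like and Foxb1-like clusters had 1, 4 and 1 Tbx3 UMIs in Irx5KO and 0 in WT. Pomc cells carried 29 Tbx3 UMIs in 14 of 26 Irx5KO cells (212 CPM) and 11 UMIs in 6 of 6 WT cells (270 CPM). That was 2.95 times (1.93 to 4.35) the level of other Irx5KO neurons and 4.43 times (2.15 to 8.25) that of other WT neurons, and 2.86 times in Irx5KO without the barcode family. Tbx3os1, whose gene overlaps Tbx3 on the other strand, had 32 UMIs (10.4 CPM) in Irx5KO and 13 UMIs (7.17 CPM) in WT neuron-like cells; reads of the pair could be confused if counting ignored strand, on which the sources used here are silent.

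Nr5a2 was found nearly only in neurons, with 46 UMIs (14.9 CPM) in Irx5KO and 9 UMIs (4.97 CPM) in WT neuron-like cells and 1 UMI outside them in each library. The ratio in neuron-like cells was 3.0 (1.45 to 6.97), and 1.71 (0.740 to 4.43) without the Kndy-like neurons, an interval that includes 1. The Kndy-like cluster, which expresses Kiss1 and Tac2, held 23 of the 46 Irx5KO UMIs, in 14 of 47 cells (12 with families summed; 146 CPM), against 1 UMI in 21 WT cells (14.9 CPM), a ratio of 9.79 (1.59 to 403). The Agrp-like cluster had 8 UMIs (36.6 CPM) in Irx5KO and 6 UMIs (65.9 CPM) in WT, levels whose intervals overlapped. Another 8 Irx5KO UMIs were in the Npvf/Crabp1 cluster, where WT had 0. In Pomc cells Nr5a2 had 5 UMIs in 4 of 26 Irx5KO cells and 0 in 6 WT cells, where 0 counts allow up to 90.6 CPM, so no ratio between the libraries is given. Against other Irx5KO neurons the ratio was 2.63 (0.810 to 6.64).

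Prdm12 was close to the limit of detection, with 5 UMIs in Irx5KO and 7 in WT neuron-like cells (0.419, 0.105 to 1.53). Of the 5 Irx5KO UMIs, 4 were in 3 Pomc cells, 86.1 times (8.52 to 4242) the level of other Irx5KO neurons. In WT 1 UMI was in a Pomc cell with 101 Pomc UMIs, 5 were in 2 VMH-like cells and 1 in a Foxb1-like cell. Outside neurons WT had 1 UMI, in a tanycyte-like cell, and Irx5KO had 0. A difference between the libraries was not detectable at this depth.

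Genes of the Pomc pathway were counted by list, with the same 1.5-fold limit; genes at 0 UMIs in the Pomc cells are counted as lower, and many genes had fewer than 3 UMIs there. Of 9 measured processing and secretion genes, 2 were higher and 1 lower in Irx5KO Pomc cells than in other Irx5KO neurons (12.9% and 25.8% of all genes; median log2 ratio 0.16, against -0.08 over all genes), and 3 higher and 1 lower in WT Pomc cells (19.4% and 34.5% of all genes; 0.51 against 0.12). Pcsk1n, which encodes an inhibitor of the convertase Pcsk1, was 1.55 times as high (1.44 to 1.66) in Irx5KO and 1.19 times (0.995 to 1.41) in WT, and Scg5, a chaperone of the convertase Pcsk2, 1.12 times (0.976 to 1.28) and 1.45 times (1.16 to 1.80). The granule genes Scg2 and Chgb had ratios of 1.19 and 1.38 in Irx5KO and 1.13 and 0.884 in WT. Pcsk1, which makes the first cuts of the precursor, had 20 UMIs in Irx5KO Pomc cells (1.77, 1.06 to 2.80) and 5 in WT (2.01, 0.641 to 4.85). Chga went opposite ways, lower in Irx5KO (0.642, 0.447 to 0.893) and higher in WT (1.63, 1.03 to 2.47). The other WT calls were Pam, higher (1.56, against 0.786 in Irx5KO), and Cpe, lower (0.541, against 1.06 in Irx5KO). Between the libraries 0 of the 9 genes were higher in Irx5KO neuron-like cells and 1 lower, against 12.4% and 6.47% of all genes. Their median log2 ratio was 0.02, against 0.07 over all genes. The lower gene was Pcsk2, at 163 CPM in Irx5KO and 261 CPM in WT (0.625, 0.551 to 0.711).

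The same genes were compared between the WT pituitary-side cells and the WT neuronal Pomc cells. Of 4 measured list genes 1 was higher and 1 lower in them, Chgb (1.81, 1.01 to 3.18) and Scg5 (0.464, 0.244 to 0.821), and the other 2, Pcsk1n and Scg2, had ratios of 1.42 and 1.43. Pcsk2, a convertase, had 0 UMIs in them and 15 in the 6 neuronal cells, with an upper end of 0.804 for the ratio; for Pcsk1, with 0 and 5 UMIs, the upper end was 3.15, so no difference was detectable. Cpe, which trims the cut peptides, had 16 and 14 UMIs (1132 and 344 CPM), too few for a call. Over the 95 genes with 50 UMIs in the 2 kinds of cell, 17.9% passed 1.5-fold upwards and 30.5% downwards on the pituitary side.

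Melanocortin receptors and their partners had few UMIs in Pomc cells. Of 5 measured genes 0 were higher and 1 lower in Irx5KO Pomc cells (median log2 ratio -0.19), and 0 of 4 higher and 3 lower in WT, the 3 with 0 to 3 UMIs each. The shares over all genes were 12.9% higher and 25.8% lower in Irx5KO and 19.4% and 34.5% in WT. The one lower in Irx5KO was Agrp, the antagonist made by a separate arcuate population, with 1 UMI in 26 Irx5KO and 0 in 6 WT Pomc cells. Mrap2, an accessory protein of melanocortin receptors, had 8 UMIs in Irx5KO and 3 in WT Pomc cells, Mgrn1 7 and 1, and Mc3r, a receptor, 6 and 0. Between the libraries 2 of 5 were higher in Irx5KO neuron-like cells (Agrp, 2.03, 1.79 to 2.30, and Atrn, 1.56, 1.07 to 2.30) and 1 lower (Mrap2, 0.596, 0.488 to 0.727). Of all genes 12.4% were higher and 6.47% lower there. The median log2 ratio was -0.23, against 0.07 over all genes.

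Developmental factors of Pomc neurons gave 2 higher and 2 lower of 5 measured in Irx5KO Pomc cells (12.9% and 25.8% of all genes; median log2 ratio 0.47, against -0.08 over all genes), and 2 higher and 1 lower of 3 in WT (19.4% and 34.5% of all genes). Six3, a homeobox factor, was 1.61 times (1.05 to 2.38) the level of other neurons in Irx5KO and 2.35 times (1.38 to 3.77) in WT. Nkx2-1, required for Pomc expression in mice, was 1.69 times (0.965 to 2.76) and 4.48 times (2.08 to 8.60) as high. Isl1, another factor required for it, had ratios of 1.39 in Irx5KO and 0.469 in WT, both with intervals that include 1. Of the lower genes Bsx and Otp had 1 UMI each in Irx5KO Pomc cells. In neuron-like cells 2 of 5 were higher in Irx5KO and 1 lower, against 12.4% and 6.47% of all genes (median log2 ratio 0.36, against 0.07).

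Signal-dependent factors gave 2 higher and 4 lower of 7 in Irx5KO Pomc cells (12.9% and 25.8% of all genes; median log2 ratio -0.13) and 2 higher and 3 lower of 5 in WT (19.4% and 34.5% of all genes; -0.08). Esr1, the oestrogen receptor, was 4.44 times (2.24 to 8.16) as high in Irx5KO, with 13 UMIs, and 13 times (4.29 to 33.7) in WT, with 6 UMIs. Of the WT UMIs, 4 were in 1 Pomc cell of the Npvf/Crabp1 cluster. Without that cluster the WT ratio was 6.80 (0.750 to 29.6), an interval that includes 1. Stat3, which acts downstream of the leptin receptor, had 13 UMIs in Irx5KO (1.92, 0.997 to 3.38) and 4 UMIs in WT (2.15, 0.571 to 5.71). Egr1, an early-response gene, had 8 UMIs in Irx5KO (0.340, 0.146 to 0.675) and 0 in WT, and Nr3c1, the glucocorticoid receptor, had ratios of 0.916 and 0.518. In neuron-like cells 1 of 7 was higher in Irx5KO and 0 lower, against 12.4% and 6.47% of all genes (median log2 ratio 0.13, against 0.07).

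Receptors and channels gave 3 higher and 2 lower of 7 in Irx5KO Pomc cells (12.9% and 25.8% of all genes; median log2 ratio 0.34) and 0 higher and 2 lower of 3 in WT (19.4% and 34.5% of all genes). Npy1r, a receptor of neuropeptide Y, was 6.69 times (4.59 to 9.56) the level of other Irx5KO neurons, with 41 UMIs, and 3.18 times (0.630 to 9.98) in WT, with 3 UMIs. Npy1r and Esr1 are among the genes that lead the Npvf/Crabp1 cluster, which held 40 of the 41 Npy1r and 12 of the 13 Esr1 UMIs of Irx5KO Pomc cells. Within that cluster the Irx5KO Pomc cells had 5.51 times (3.39 to 9.01) the Npy1r and 3.63 times (1.55 to 8.32) the Esr1 of its other cells, and outside it 0.734 times (0.0184 to 4.18) and 1.51 times (0.0375 to 8.85) that of other neurons, on 1 UMI each. Npy2r (2.94, 1.59 to 5.06) and the channel Trpc5 (2.56, 1.28 to 4.67) were the others higher in Irx5KO, and WT Pomc cells had 1 and 0 UMIs of them. Gabbr1, a subunit of the GABA-B receptor, had 30 UMIs in Irx5KO and 9 in WT. Lepr had 0 UMIs in the Pomc cells of both libraries and 9 in Irx5KO against 15 in WT neuron-like cells, so leptin-receptor expression in these cells was not detectable at this depth. In neuron-like cells 1 of 9 was higher in Irx5KO, Npy1r (2.31, 1.65 to 3.29), and 0 lower. Of all genes 12.4% were higher and 6.47% lower there (median log2 ratio 0.22 for the list, against 0.07).

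Of 14 paralogues of the 3 regulators, Prdm2 had most UMIs in Pomc cells, 8 in Irx5KO and 1 in WT, and Nr5a1, the marker of ventromedial neurons, had 0 in both. Of the pituitary Pomc cell genes, the neuronal Pomc cells held 2 Neurod1 UMIs and 1 Pitx1 UMI in Irx5KO and 1 Tbx19 UMI in WT. Other pituitary hormone genes in them were Gh (8 and 0 UMIs), Prl (4 and 0) and Cga (4 and 0), the Irx5KO count named before the WT count.

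The genes most enriched in Pomc cells of both libraries over the other neurons were led by Cartpt. Among the 15 so ranked were Ly6h, a GPI-anchored neuronal protein (a ratio of 1.56 in Irx5KO and 1.70 in WT), the secreted glutathione peroxidase Gpx3 (1.54 and 2.15) and the protease inhibitor Cst3 (1.44 and 1.90). Resp18, a protein of the neuroendocrine secretory pathway, followed with ratios of 1.34 and 2.46, Gap43, a growth-cone protein, with 1.26 and 1.40, and the lysosomal protease Ctsb with 1.24 and 2.43. Pcsk1n and Scg5 were in this set too. These ratios are small beside those of Cartpt over all Pomc cells (4.61 in Irx5KO and 5.95 in WT). The WT ratio of Cartpt was 1.38 without the 2 WT cells under 7 Pomc UMIs. That is below the WT ratios given here for Ly6h, Gpx3, Cst3, Resp18 and Ctsb, which include those cells. The cells were chosen by Pomc in the same libraries.

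Likeness of pattern was described by Pearson's r of log2(CPM plus 10) over 41 classes and clusters of both libraries, among 11482 genes; the points share libraries and depth, and no p is given. Pomc was most like Ascc3 (0.55) and Isl1 (0.54), and its r was 0.41 with Tbx3 and 0.39 with Cartpt. The WT pars tuberalis-like class, with Pomc at 5516 CPM, is among the units, so this pattern mixes neuronal and pituitary-side Pomc. Cartpt was most like the neuropeptide gene Sst (0.81), Gpr101 (0.78), Ankrd34b and Pnoc (0.75 each). Tbx3 was most like Tbx3os1 (0.62) and Hk1 (0.60). Nr5a2, with 57 UMIs, was most like Lcn2 (0.70), Kiss1 (0.63) and Tac2 (0.56), the last 2 being genes that lead the Kndy-like cluster; Prdm12, with 13 UMIs, was most like Hecw1 (0.58), at counts too low to be read.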

How the data were processed

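For WT the authors deposited raw UMI counts (28008 genes by 2800 barcodes). The authors deposited the Irx5KO library (26840 genes, 2350 barcodes) and a merged table as natural log values; by their steps these are ln(1 + x), x being a barcode's counts rescaled to a sum of 10000. The design had assumed counts for both libraries, so whole UMI counts were recovered from the natural log values; 100% lay within 1e-06 of a whole number, and 0 of 4275938 WT UMIs compared differed from the merged table. Per the submitters' processing notes, bcl2fastq, Picard, STAR 2.6.0b, Seurat 3 and the build mm10 were used; settings and use of strand are not stated there.

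Barcodes were kept from 500 genes upwards and up to 20% mitochondrial UMIs. Called doublets were removed (Scrublet's method, expected rate 5%; 23 of 1972 Irx5KO and 10 of 1851 WT cells). Both libraries were clustered together with scanpy 1.11.5 on 2000 variable genes without the 5 members, 30 principal components, 15 neighbours and the Leiden algorithm at resolution 1, and neuron-like cells were clustered again. Classes were named from marker lists by a score of at least 1, with at least 3 markers above 2-fold, a rule set after the clusters were seen; clusters that failed it stayed unnamed, and names rebuilt this way may differ from those of the study. A Pomc cell is a neuron-like cell with at least 5 Pomc UMIs.

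UMIs were summed per class and library and given as CPM. Ratios were compared with those of all genes with at least 50 UMIs in the 2 sums, and a fold of 1.5 was called higher or lower. Named genes were the 5 members, up to 4 genes of each list with most UMIs in Pomc cells, the 15 genes most enriched in Pomc cells of both libraries (at least 30 UMIs in each) and the 5 genes most like each member (at least 100 UMIs, units of at least 20 cells); others were chosen after their values were seen, as were the barcode families and the values given without single cells, a family or a cluster. Units under 20 cells were left out of the patterns. The members and lists were chosen with earlier results of these data known. Ratio and interval code was tested on simulated counts. Python 3.11.15, scipy 1.17.1 and pandas 2.3.3 were used.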

Additional observations from a re-analysis of the deposited data

How the results depend on the processing

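Of 117 values recomputed under another setting, 99 stayed within the counting interval of the main value, 12 moved outside it and 6 turned round. A turn was counted only for ratios whose main interval excluded 1. Prdm12 in Pomc cells, at 1.19 in the main setting, thus counts as within its interval at 0.603, 0.560 and 0.543. Shares have no direction. Removal of called doublets is the main setting itself, so its values equal the main ones and add no check. The ratio of Pomc in neuron-like cells turned to 0.705 with 200 genes and 0.677 with 800 genes per cell, where WT pituitary-side cells fell into the neuron-like class. It was 3.46 without the cell of each library with most Pomc, 2.35 without the 5 barcodes of 1 family (chosen after seeing the data), and 2.56 to 2.99 otherwise. For Cartpt in neuron-like cells the ratio was 0.563 with median-of-ratios scaling, 0.975 as the mean of CPM per cell, 0.815 with clusters weighted alike and 0.629 without the cell with most Cartpt. Settings chosen after seeing the data gave 0.543 without SCN-like, VMH-like and Foxb1-like neurons, 0.546 without the family and 1.07 without the Trh/Fosb cluster. For Cartpt in Pomc cells it was 0.275 with at least 3 Pomc UMIs, 2.42 with at least 10, 2.33 with 1 per 1000 UMIs and 0.748 as the mean of CPM per cell; chosen after seeing the data, it was 0.262 without the family and 1.88 without the 2 WT cells under 7 Pomc UMIs. The share of Irx5KO Pomc UMIs on the pituitary side was 0.323% by class alone. Beyond the settings that leave out named cells, the cause of these shifts was not tested.

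Ratios in neuron-like cells ranged over 0.195 to 0.615 for Prdm12, 1.13 to 1.29 for Tbx3 and 1.71 to 4.45 for Nr5a2, lowest without the Kndy-like neurons. The share of Pomc cells ranged over 2.12% to 3.68% in Irx5KO and 0.638% to 2.04% in WT. The WT share was highest, 1.65% and 2.04%, with 200 and 800 genes per cell, where 6 and 4 pituitary-side cells counted as Pomc cells beside 9 and 6 others. TMM and median-of-ratios scaling moved all genes by 0.04 and 0.07 on the log2 scale. Nr5a2 in Pomc cells gave no ratio under any setting, since WT had 0 UMIs. No paired analysis was possible because each genotype has 1 library. That single pooled library, and depth for Prdm12 and Nr5a2, limit every comparison.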
